A study of Mus musculus with 5 samples.

Results

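The 8637 regions described here are stretches of the mouse genome that held a called peak of RNA polymerase II in brain, kidney, liver, lung and spleen alike. A window reaching 250 bp to either side was laid around every deposited peak position, the windows of the 5 lists were joined wherever they overlapped, giving 186413 regions, and the 8641 merged regions with a position from each of the 5 tissues were taken, less 4 pile-ups that held at least 1000 read 5′ ends in every library. The peak lists chose the members, so their presence in all tissues is no finding, and read counts from the same libraries are given below as descriptions with no test. For comparison, 8329 regions had a peak in 4 tissues and 123556 in 1 tissue. The pile-up limit fell between a dropped region whose lowest library held 1126 ends and a kept one, on chromosome 9 from 3035796 to 3036346, whose lowest library held 971.

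The chromatin came from tissues of adult FVB mice, crosslinked with formaldehyde and precipitated with an Abcam antibody to RNA polymerase II, with 1 library per tissue and between 10292262 and 14964934 aligned reads per library. No input library was analysed. The labels do not say how many animals gave the tissue, and whole tissues hold many cell types, so more cells of a type and more polymerase per cell cannot be told apart. Counts were scaled by median-of-ratios factors (brain 1.03, kidney 1.08, liver 1.16, lung 1.13, spleen 0.666). These scaled counts are called normalised reads, and the leading tissue of a region is the one with the most of them. Intervals cover counting error or the precision of a median over regions, not differences between animals. Reads carried no molecular identifiers, so they may not stand for separate molecules.

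RNA polymerase II transcribes all protein-coding genes and many non-coding RNAs. In mammals it assembles with general factors at a start site, often within a CpG-rich promoter, and commonly pauses shortly downstream before it is released into the gene body. Chromatin immunoprecipitation therefore tends to give a compact peak at active starts, and genes needed by most cells, such as those for translation, glycolysis and the cytoskeleton, are known to be occupied in many tissues.

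The deposited coordinates are those of mouse build mm9, judged from the last read of each chromosome. No annotation of that build was used, and start sites of 73 well-known genes were written down from memory and accepted only where the spacing of neighbouring gene starts in a GRCm38.p6 table matched the pattern of peak regions around the remembered site. The gene names below rest on that check, and 58 of the 73 were placed at a common region within 2 kb. No common region lay within 2 kb of Uba1, Ctcf or Cdkn1a, and the spacing check was not passed for 12 others, Actb among them.

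The promoters of 5 of the placed genes are shown because they span the range from the most even to the least even read counts and include the induced genes discussed below. They are RefSeq sequences on build GRCm38.p6, from 250 bases before to 50 bases after the annotated start, and their coordinates are not those of the reads. Capitals mark matches on either strand to TATAAA (the TATA box), CCAAT (the site classically bound by NF-Y), GGGCGG (the GC box), TGACGTCA (the cAMP response element), CCGGAAG (a site of ETS factors) or the CArG box, and none of the matches shown overlap. The sequences lie at chr11:48800110-48800409 (plus strand) for Rack1, a ribosome scaffold protein, and chr4:43000458-43000757 (minus) for Vcp, an ATPase that extracts ubiquitinated proteins. Atp5b, the beta subunit of mitochondrial ATP synthase, is at chr10:128083057-128083356 (plus), the immediate-early transcription factor gene Fos at chr12:85473640-85473939 (plus) and Dusp1, a phosphatase of MAP kinases, at chr17:26508423-26508722 (minus).
Rack1: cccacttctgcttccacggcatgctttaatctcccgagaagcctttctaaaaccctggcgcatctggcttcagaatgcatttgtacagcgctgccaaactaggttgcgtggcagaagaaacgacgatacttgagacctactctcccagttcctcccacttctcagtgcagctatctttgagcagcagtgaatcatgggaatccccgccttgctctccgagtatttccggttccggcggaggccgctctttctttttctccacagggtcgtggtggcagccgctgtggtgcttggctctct
Vcp: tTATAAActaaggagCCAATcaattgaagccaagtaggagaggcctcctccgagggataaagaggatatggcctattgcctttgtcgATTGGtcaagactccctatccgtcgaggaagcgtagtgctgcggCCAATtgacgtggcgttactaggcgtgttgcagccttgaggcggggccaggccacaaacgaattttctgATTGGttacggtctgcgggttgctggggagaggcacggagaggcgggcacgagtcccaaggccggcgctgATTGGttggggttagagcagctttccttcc
Atp5b: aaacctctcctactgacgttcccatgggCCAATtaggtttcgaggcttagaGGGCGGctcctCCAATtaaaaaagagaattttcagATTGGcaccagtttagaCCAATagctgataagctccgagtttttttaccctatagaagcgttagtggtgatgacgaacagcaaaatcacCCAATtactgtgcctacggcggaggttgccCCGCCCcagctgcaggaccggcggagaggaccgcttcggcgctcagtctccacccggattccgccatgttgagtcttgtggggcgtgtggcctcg
Fos: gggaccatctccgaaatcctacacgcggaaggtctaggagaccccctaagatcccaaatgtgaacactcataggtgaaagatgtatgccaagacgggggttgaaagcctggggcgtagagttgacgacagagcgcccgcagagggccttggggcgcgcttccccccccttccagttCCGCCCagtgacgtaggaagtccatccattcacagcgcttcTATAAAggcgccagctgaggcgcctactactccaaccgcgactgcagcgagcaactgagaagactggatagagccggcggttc
Dusp1: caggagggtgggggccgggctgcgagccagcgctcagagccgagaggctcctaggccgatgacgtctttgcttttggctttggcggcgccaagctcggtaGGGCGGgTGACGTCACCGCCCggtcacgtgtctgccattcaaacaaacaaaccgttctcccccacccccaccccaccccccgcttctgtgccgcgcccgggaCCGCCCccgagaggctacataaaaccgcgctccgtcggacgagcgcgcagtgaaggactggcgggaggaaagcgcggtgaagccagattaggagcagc

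Vcp held 5 CCAAT matches and Atp5b also held 5. Fos had a TATAAA match from position -33 to -28 relative to the start, where a TATA box is usually found, and Dusp1 had TGACGTCA from -143 to -136. Rack1 held none of the 6 motifs, which says only that these letters are not in this window. Over the 54 placed genes with a promoter in the table, the median number of CpG dinucleotides per 300 bases was 24, against 7 over all 32851 promoters, and the median GC content was 62% against 52.7%. GGGCGG was present in 66.7% of the placed promoters against 35.7% of all. CCAAT was present in 50% against 37.4%, TATAAA in 22.2% against 13.6%, TGACGTCA in 9.26% against 1.79%, the CArG box in 5.56% against 1.63% and CCGGAAG in 7.41% against 8.86%. The gene list was drawn up from widely expressed genes, so these shares describe that list and not all common regions.

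The median width of common regions was 706 bp (95% interval of the median 701 to 711, quartiles 621 and 1056), where a single position would give 501 bp. The widths of regions with a peak in 4 tissues had a median of 886 bp, and 42% of those regions exceeded 1001 bp, against 27.2% of common regions. The widest common region, on chromosome 16 from 4862556 to 4868681, spanned 6126 bp and held 9 brain, 7 kidney, 4 liver, 7 lung and 1 spleen positions. The next widest, each of 5676 bp, lay on chromosome 2 from 92218636 to 92224311 and on chromosome X from 71019266 to 71024941. Width follows from the 250 bp extension: extending by 150 bp gave a median of 476 bp and by 500 bp a median of 1678.5 bp.

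Windows of 250 bp to either side had to overlap for positions to be joined, so the positions of 1 region lie close together by the rule, and their distances are a description only. In 6275 common regions (72.7%) each tissue had exactly 1 position, and the distance from the first to the last of the 5 had a median of 155 bp (quartiles 105 and 230, largest 1330). All 5 positions lay within 50 bp of each other in 264 of these regions (4.21%). For pairs of tissues the median distance ran from 55 bp between brain and lung to 70 bp between lung and spleen, liver and spleen, or kidney and lung. Spleen positions lay farthest from the middle position, at a median of 40 bp, and brain positions nearest, at 25 bp. Several positions in 1 common region occurred in 1401 regions for kidney, 1372 for lung, 1338 for brain, 1040 for liver and 732 for spleen.

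**Figure D1:**
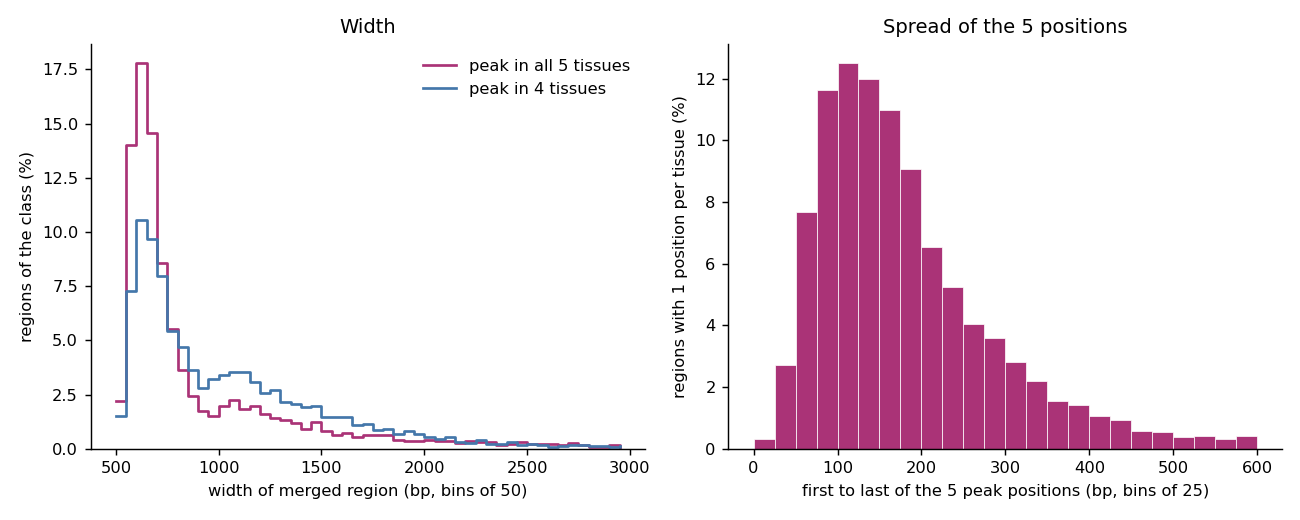
Left, width of merged regions in bp against the percentage of regions of each class, for regions with a peak in all 5 tissues and in 4 tissues; right, distance from the first to the last of the 5 peak positions in the 6275 common regions with 1 position per tissue. The common regions peak between 600 and 650 bp, and the spread of positions has a median of 155 bp.

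Reads of the forward strand piled up to the left of the midpoint and reads of the reverse strand to the right, the pattern of fragments sequenced from both ends of a bound site. For each region the mean position of forward 5′ ends was subtracted from that of reverse ends, within 500 bp of the midpoint. The median distance over common regions was 197 bp in brain (95% interval 194 to 199), 195 bp in lung, 159 bp in liver, 154 bp in kidney and 151 bp in spleen (148 to 154). The distance was positive in 88.3% of common regions in spleen and in up to 90% in lung, the highest share. In regions with a peak in 4 tissues, centred in the same way, the median distance was 124 bp in brain, 128 bp in lung, 107 bp in liver, 106 bp in kidney and 124 bp in spleen. Regions with a peak in 1 tissue and at least 20 reads there gave 105 bp in brain, 97.7 bp in lung, 83.1 bp in liver, 97.1 bp in kidney and 125 bp in spleen. In every tissue the distance was thus longer at common regions than in these 2 classes. The classes also differ in width, with a median of 501 bp in regions of 1 tissue. Each mean takes in all ends within 500 bp, so evenly spread background reads shorten the distance. Forward ends in brain, summed over common regions, peaked at 6.62 times the level towards 1000 bp from the midpoint. The same measure was 2.64 in regions of 4 tissues and 3.08 in those of 1 tissue. The parts of width and background in the distances, between classes or tissues, were not tested.

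The strand distance was longest at narrow regions. Their peak positions lie close together by the rule, so the midpoint is near each of them. A wide region's midpoint can fall between positions, so the contrast of width classes depends on the centre used and is a description only. In common regions of up to 601 bp, the median distance was 243 bp in brain, 247 bp in lung, 197 bp in liver, 190 bp in kidney and 194 bp in spleen, and in brain it was positive in 99.4% of them. In common regions over 1001 bp the medians were 52 bp in brain, 59.7 bp in lung, 46.1 bp in liver, 44.9 bp in kidney and 52.1 bp in spleen. In the wide regions the forward ends to the left of the midpoint made up 51.7% of forward ends in brain, against 77.7% in the narrow ones. Summed over the wide regions, the brain maxima were turned round, with the forward one at 75 bp and the reverse one at -125 bp. In the other tissues the forward maximum of the wide regions lay to the left of the reverse one. Brain and lung lay above the other 3 tissues in the narrow class as over all common regions, while the order of brain and lung, and that of kidney and spleen, was turned round.

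**Figure D2:**
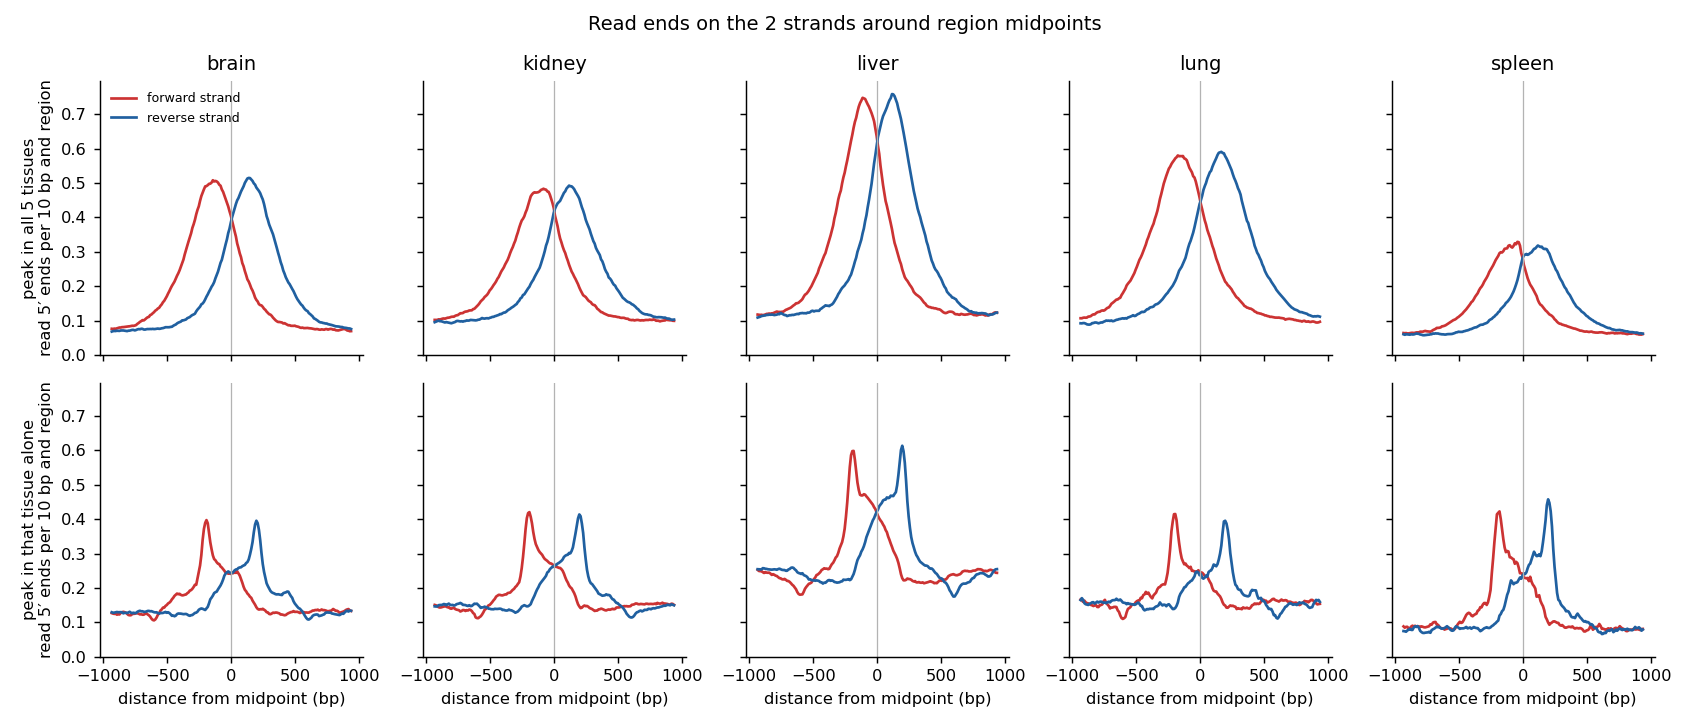
Read 5′ ends per 10 bp and region on the forward and the reverse strand against distance from the midpoint in bp, after a running mean over 50 bp, for the 8555 common regions away from pile-ups (top) and for regions with a peak in that tissue alone and at least 20 reads (bottom). In the top row the forward curve lies to the left of the midpoint and the reverse curve to the right in every tissue; in the bottom row sharp maxima stand 380 or 390 bp apart.

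When reads were summed over all common regions, the forward and reverse maxima lay 360 bp apart in spleen, 340 in lung, 320 in brain, 290 in kidney and 230 in liver. A few regions weigh heavily in such sums: without the 82 common regions within 100 kb of a dropped pile-up or of the first aligned read of a chromosome, the distance was 160 bp in spleen, 340 in lung, 280 in brain, 200 in kidney and 230 in liver. The median over regions moved by less: it was 198 bp in brain and 152 bp in spleen without them. Centred on each tissue's own position instead of the shared midpoint, the maxima were 370 bp apart in spleen, brain and kidney, 380 in lung and 360 in liver. Regions with a peak in 1 tissue alone, where the midpoint is nearly always that tissue's own position, gave 380 or 390 bp in every tissue. The distance between summed maxima therefore moved with the point on which the regions were centred.

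Signal to the left and right of a common region was compared between 100 and 1000 bp from the midpoint, with reads moved 75 bp downstream. The heavier side held a median of 58.2% of these reads in kidney and up to 59.8% in liver. Among the 7241 common regions with at least 10 side reads in every tissue and no tie, 23.9% had the same heavier side in all 5 tissues, against 25.7% of all such regions of the series. Within this window that share was near the background and is not read as a feature of the common regions. Pairs of tissues had the same heavier side in 58.4% (liver and spleen) to 64.5% (brain and lung) of common regions. The pair shares were computed for common regions only, so they have no background beside them and are not read as a feature of these regions. With the outer limit at 2000 bp the share of regions with 1 heavier side in all tissues was 33.6%. The share over all regions of the series was not computed at that limit, so this value has no background beside it.

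Read numbers at a common region differed between tissues by a median factor of 2.17 from lowest to highest (95% interval of the median 2.15 to 2.19). Raw reads per common region had medians of 28 in spleen, 46 in kidney, 45 in brain, 54 in liver and 51 in lung. Highest and lowest tissue differed at least 4-fold in 840 common regions (9.73%), and 3506 (40.6%) stayed under 2-fold. With at least 20 reads in every tissue, the share at 4-fold was 7.94% of 6263 common regions, 12.1% of 1955 regions with a peak in 1 to 4 tissues and 8.93% of all such regions. The share under 2-fold was 44.1% of common regions, 31.7% of the others and 41.2% of all. The other regions lack a peak in at least 1 tissue, so this comparison is not independent of the rule. The most even common region with at least 20 normalised reads in every tissue lay on chromosome 9 from 106090031 to 106093286. It held 113 normalised reads in kidney and in lung, 109 in liver, 108 in spleen and 106 in brain. Spearman's rho of normalised reads across common regions, which share libraries and are not independent replicates, ran from 0.535 for liver and spleen to 0.678 for brain and kidney.

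With median-of-ratios scaling of whole-region counts liver led more common regions than any other tissue, and with scaling by total reads lung did. Under median-of-ratios scaling liver had the highest normalised count in 2562 of them, lung in 1828, brain in 1573, spleen in 1570 and kidney in 1104. Among regions at 4-fold or more liver led 429, spleen 157, lung 154, brain 55 and kidney 45, and brain was the lowest tissue in 322 of them. In 613 regions the leading tissue stood at least 2-fold above the second, and liver led 316 of these. These orders depend on the scaling and on the stretch in which reads are counted. With scaling by total reads lung led 3434 regions, brain 2670, liver 1728, kidney 613 and spleen 192, the median ratio was 2.86 and 1848 regions reached 4-fold. Counting within 250 bp of the midpoint, again with median-of-ratios scaling, gave kidney 2010 regions, the most of any tissue, and left liver with 1784.

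The leading tissue also went with the width of the region under median-of-ratios scaling of whole-region counts. Of common regions of up to 601 bp, liver led 38.3% and kidney 5.18%, and of those over 1001 bp liver led 20.5% and kidney 23%. Brain led between 17.1% and 18.6% in every width class. This split by width was not repeated with scaling by total reads or with counts near the midpoint, settings under which the leading tissues changed. The median ratio was 2.15 in the narrow class and 2.18 in the wide class, so evenness itself hardly moved with width. Chromosome X held 227 common regions, of which spleen led 30.8%, against 17.8% of 8408 on the autosomes. With scaling by total reads those shares were 3.96% and 2.18%.

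**Figure D3:**
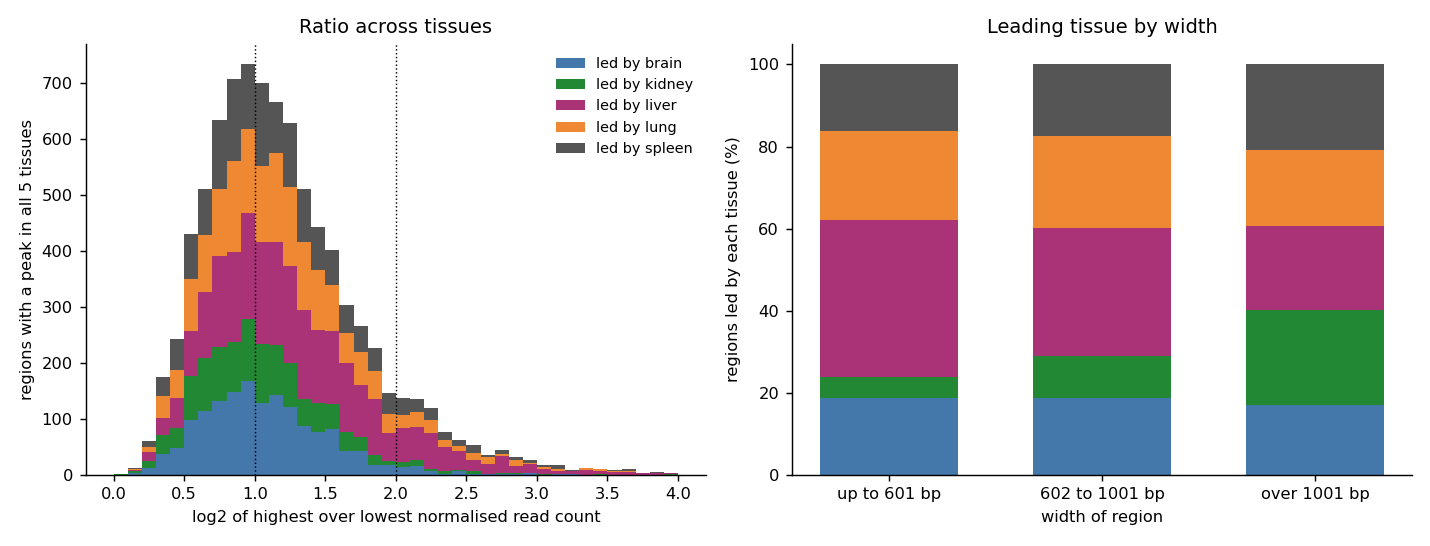
Left, log2 of the highest over the lowest normalised read count against the number of common regions, stacked by leading tissue, with dotted lines at 2-fold and 4-fold; right, percentage of common regions led by each tissue in 3 width classes. Liver leads 38.3% of the narrow and 20.5% of the wide regions, kidney 5.18% and 23%.

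A peak in every tissue did not mean similar occupancy. On chromosome 5 from 90891381 to 90892256, liver held 3569 reads while brain had 13, lung 13, kidney 25 and spleen 29, a normalised ratio of 266, the largest among common regions with at least 50 reads in the leading tissue. The region from 38979806 to 38980606 of chromosome 7 held 7054 liver, 679 kidney, 206 lung, 65 spleen and 50 brain reads. The largest ratio led by kidney was on chromosome 8 from 96886981 to 96888471, with 301 kidney reads against 73 in lung, 57 in liver, 46 in spleen and 18 in brain. The largest led by lung was on chromosome 2 from 26439216 to 26439851, with 410 lung reads against 68 in kidney, 42 in brain, 25 in liver and 17 in spleen. No gene name was given to these 4 regions. The largest ratio led by brain was at Tuba1a, an alpha-tubulin gene strongly used in neurons, on chromosome 15 from 98783606 to 98784221: brain held 166 reads, lung 161, kidney 44, spleen 31 and liver 20. Lung was nearly as high as brain there, at 143 against 162 normalised reads. The name Tuba1a was looked up after values had been seen. The largest led by spleen, on chromosome 9 from 3003931 to 3005231, held 2721 spleen reads and 245 to 923 in the other tissues, and was 1 of the 82 regions near a pile-up or a chromosome's first read.

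Those 82 regions stood apart from the rest. Spleen led 78 of them, 34 reached 4-fold, and their median ratio was 3.81. They held 11.3% of the common regions' reads in spleen, and between 2.63% (brain) and 4.38% (kidney) in the other tissues. Without them spleen led 1492 common regions and 806 regions reached 4-fold. High counts in all libraries also occurred elsewhere: on chromosome 12 from 3109651 to 3110466 spleen held 1403 reads, brain 361, kidney 664, liver 685 and lung 475, and the region on chromosome 4 from 70038826 to 70039621 held 1082 spleen reads and 321 to 558 in the other tissues. Repeated sequence was not analysed here.

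Most common regions had no other within 5 kb. The median gap between neighbours was 46.4 kb. Joined across gaps of up to 5 kb they formed 7088 places, of which 6169 held 1 region, 621 held 2 and 298 held 3 or more. The place with most regions, 45, lay on chromosome 11 from 3030541 to 3102641, near the chromosome's first read.

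The 58 placed genes had a median ratio of 2.31 from lowest to highest tissue, between 1.50 for Vcp and 8.88 for Atp5b. Of these, 15 stayed under 2-fold and 7 reached 4-fold, against 41.2% and 8.93% of all regions with at least 20 reads in each tissue. Lung led 28 of the 58, liver 20, spleen 6 and brain 4, and kidney led 0. With scaling by total reads lung led 34, liver 16, brain 6, kidney 2 and spleen 0, and the median ratio was 2.89 for translation genes, 4.44 for immediate-early genes and 3.79 for RNA processing genes. Over all 8637 common regions lung led 1828 and liver 2562 with median-of-ratios scaling, and lung 3434 and liver 1728 with scaling by total reads. These counts are the background for the leading tissues of the groups below. The leading tissue was the same under 4 ways of counting and scaling for all but 19 genes, and those 19 are named where they are described below. The list was drawn up with earlier results of these data known, and it describes familiar genes, not common regions at large.

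**Figure D4:**
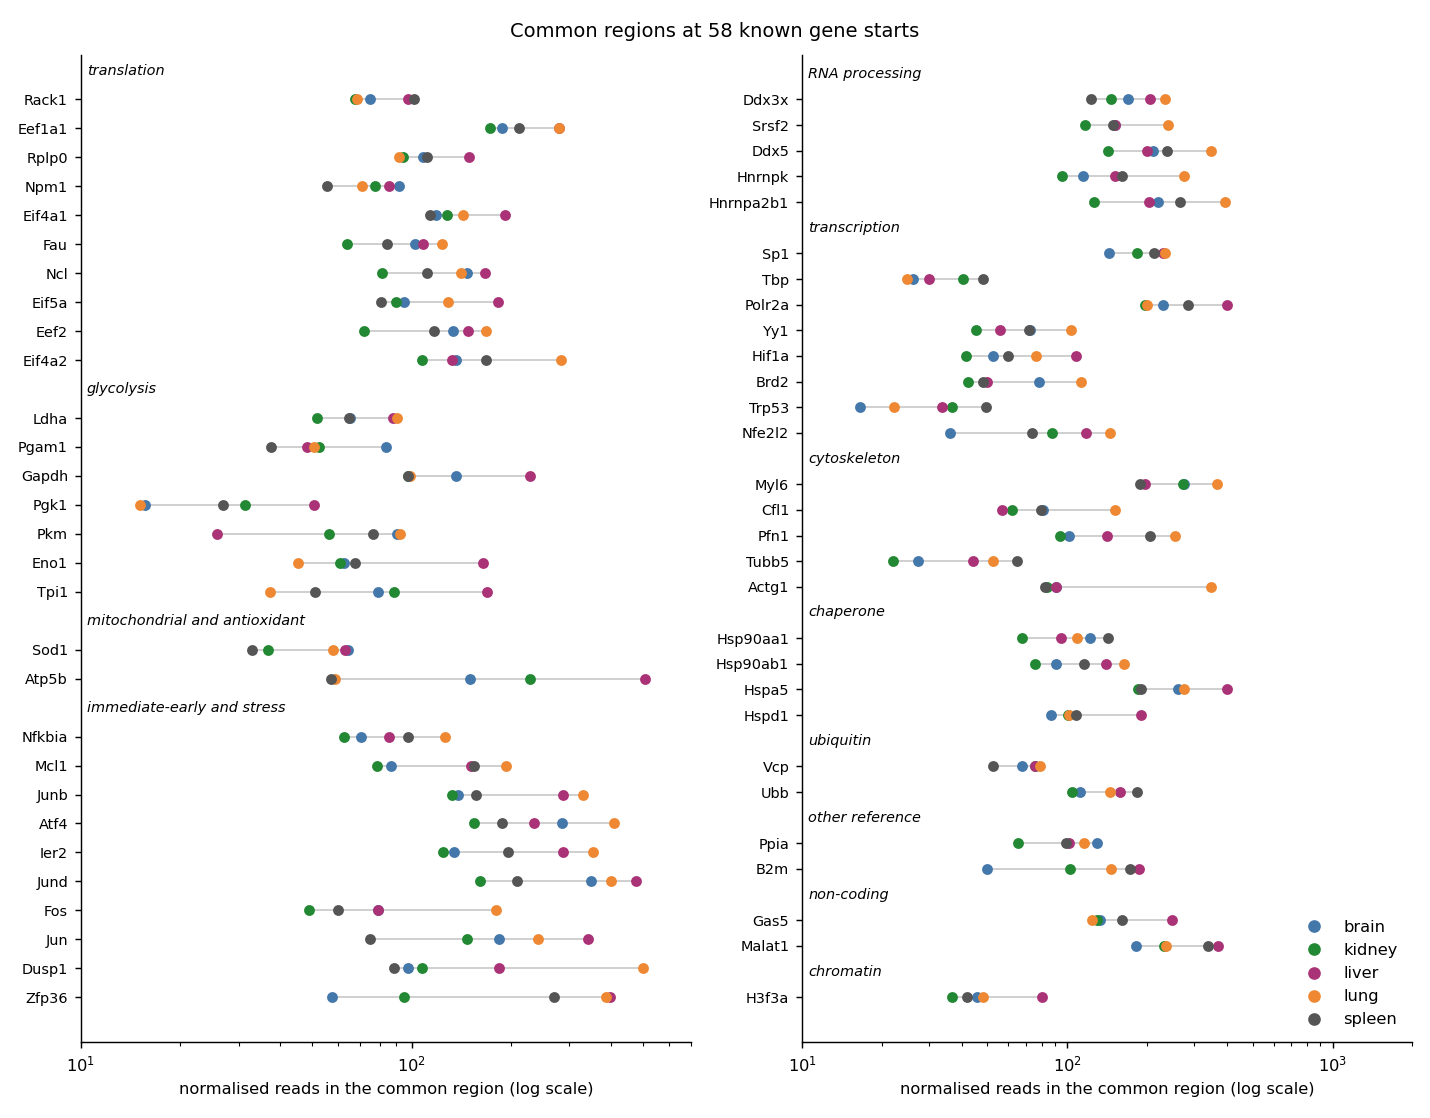
Normalised reads (log scale) in the common region at each of 58 known gene starts, one point per tissue, grouped by function and ordered by ratio within each group. Lung is the rightmost point at all 5 RNA processing genes, and liver is the rightmost at 4 of 7 glycolysis genes.

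Genes of translation had a median ratio of 1.81 over the 10 placed, the lowest of any group but ubiquitin with median-of-ratios scaling. With scaling by total reads it was 2.89, above the medians of 2.03 for non-coding RNAs, 2.47 for ubiquitin and 2.53 for transcription genes and near the 2.86 of all common regions. Rack1, on chromosome 11 from 48613446 to 48614101, held 77 brain, 73 kidney, 113 liver, 77 lung and 68 spleen reads, a ratio of 1.52. Normalised, spleen led at 102 and liver followed at 97.3, and with scaling by total reads liver led. Eef1a1, the elongation factor that brings aminoacyl-tRNA to the ribosome, held 193 brain, 187 kidney, 324 liver, 315 lung and 141 spleen reads, a ratio of 1.62, with lung and liver level at 280 and 279 normalised reads. At the other end Eif4a2, a helicase of translation initiation, reached 2.62, led by lung with 318 reads against 140 in brain, 117 in kidney, 154 in liver and 112 in spleen. The genes of this group whose leading tissue changed with the counting or scaling were Rack1, Eef1a1, Eif4a1, Ncl and Npm1.

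Glycolysis genes were less even, with a median ratio of 3.37 over 7 genes. Liver led Tpi1, Eno1, Pgk1 and Gapdh under all 4 ways of counting and scaling. Tpi1, triosephosphate isomerase, on chromosome 6 from 124763931 to 124764566, held 196 liver, 96 kidney, 81 brain, 42 lung and 34 spleen reads, a ratio of 4.53. Gapdh, a usual reference gene, held 264 liver, 140 brain, 111 lung, 106 kidney and 65 spleen reads, a ratio of 2.33. Pkm, the pyruvate kinase gene of most tissues other than liver, was highest in lung and lowest in liver: lung held 104 reads, brain 93, kidney 61, spleen 51 and liver 30. The ratio at Pkm was 3.57. Ldha, lactate dehydrogenase A, was the most even of the group at 1.75, with 102 liver, 102 lung, 67 brain, 56 kidney and 43 spleen reads.

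Atp5b had the largest ratio of all placed genes. Its region on chromosome 10 from 127519981 to 127520636 held 588 liver, 247 kidney, 154 brain, 66 lung and 38 spleen reads, 8.88-fold from highest to lowest after scaling. Liver and kidney were the highest tissues and lung and spleen the lowest. Sod1, the cytosolic superoxide dismutase, held 66 brain, 40 kidney, 73 liver, 65 lung and 22 spleen reads, a ratio of 1.95, and brain or liver led it depending on how repeated reads were counted.

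At immediate-early and stress genes, some of which are transcribed within minutes of a stimulus, lung was often highest. Of the 14 genes listed, Egr1, Myc and Btg1 did not pass the spacing check, and Cdkn1a had no common region within 2 kb. Over the 10 placed the median ratio was 2.89, and lung led 7 of them: Nfkbia, Mcl1, Junb, Atf4, Ier2, Fos and Dusp1. With scaling by total reads lung led 9 of the 10, and 3434 of all 8637 common regions. Dusp1, on chromosome 17 from 26644896 to 26645501, held 564 lung, 213 liver, 117 kidney, 100 brain and 59 spleen reads, a ratio of 5.66. Fos, on chromosome 12 from 86814466 to 86815356, held 202 lung, 92 liver, 81 brain, 53 kidney and 40 spleen reads, a ratio of 3.67. Zfp36, which codes for an mRNA-destabilising protein, had the largest ratio, 6.91: liver held 461 reads, lung 436, spleen 179, kidney 103 and brain 59. Liver and lung were level there, at 397 and 387 normalised reads, and lung led in the 3 other ways of counting and scaling. Jund was led by liver, and by lung with scaling by total reads. Nfkbia, the inhibitor of NF-kappa-B, was the most even at 2.01, with 142 lung, 99 liver, 72 brain, 68 kidney and 65 spleen reads.

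RNA processing genes were led by lung throughout, at all 5 placed and under all 4 ways of counting and scaling. Hnrnpa2b1, an RNA-binding protein of splicing and transport, had the largest ratio, 3.11, with 443 lung, 236 liver, 225 brain, 177 spleen and 137 kidney reads. Ddx3x, an RNA helicase encoded on the X chromosome, had the smallest, 1.89, with 262 lung, 237 liver, 174 brain, 158 kidney and 82 spleen reads. At Srsf2, Ddx5 and Hnrnpk the ratios were 2.06, 2.46 and 2.87.

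Among 8 genes of transcription the median ratio was 2.44. Sp1, a factor that binds GC boxes, was the most even at 1.63, with 148 brain, 198 kidney, 267 liver, 264 lung and 142 spleen reads. Nfe2l2, the regulator of antioxidant genes, was the least even at 4.01, with 163 lung, 137 liver, 95 kidney, 49 spleen and 37 brain reads. Polr2a, which codes for the largest subunit of RNA polymerase II itself, held 464 liver, 236 brain, 224 lung, 212 kidney and 190 spleen reads, a ratio of 2.04. Trp53, the p53 tumour suppressor, had few reads everywhere: spleen held 33, kidney 40, liver 39, lung 25 and brain 17, a ratio of 2.99. Spleen led Trp53 and Tbp, and kidney led both with scaling by total reads. Sp1 was led by lung, and by liver when repeated reads were counted once.

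Cytoskeletal genes had a median ratio of 2.71, and lung led 4 of 5. Actg1, gamma-actin, was the least even at 4.22, with 392 lung, 105 liver, 93 brain, 91 kidney and 55 spleen reads. Lung alone stood out there, and the other 4 tissues lay between 82.5 and 90.6 normalised reads. Myl6, a myosin light chain, was the most even at 1.96, with 414 lung, 297 kidney, 283 brain, 228 liver and 125 spleen reads. Tubb5 was led by spleen, and by lung with scaling by total reads. Myl6 was led by kidney and Pfn1 by liver when reads within 250 bp of the midpoint were counted.

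The remaining groups were small. The 4 chaperone genes had ratios from 2.12 for Hsp90aa1 to 2.18 for Hspd1 with median-of-ratios scaling, and from 2.29 for Hsp90aa1 to 3.26 for Hspa5 with scaling by total reads. With the first scaling kidney was the lowest tissue at 3 of them. Hsp90aa1 was led by spleen, and by brain with scaling by total reads. Vcp held 69 brain, 82 kidney, 88 liver, 89 lung and 35 spleen reads, the smallest ratio of the list at 1.50, led by lung, or by liver when repeated reads were counted once. Ubb, a polyubiquitin gene, had a ratio of 1.76, and spleen led it, or lung with scaling by total reads. Malat1, a nuclear long non-coding RNA, held 431 liver, 266 lung, 251 kidney, 227 spleen and 186 brain reads, a ratio of 2.05. Spleen led Malat1 when repeated reads were counted once or reads were counted near the midpoint. Gas5, the host of many small nucleolar RNAs, had a ratio of 2.00, led by liver. B2m, the light chain of class I antigen-presenting molecules, had a ratio of 3.74, with 216 liver, 164 lung, 115 spleen, 111 kidney and 51 brain reads, so that brain was lowest, and its leading tissue was liver, lung or spleen depending on the setting. Ppia, cyclophilin A, had a ratio of 1.98, led by brain. H3f3a, a gene of histone variant H3.3, had a ratio of 2.17, led by liver.

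A further 12 genes, some of them known for use in 1 tissue, were looked up after values had been seen. Of these, 6 were placed, Tuba1a above among them. The 12 were picked with the leading tissue in view, so they neither check the tissue labels nor describe the common regions at large. At Fgb, the fibrinogen beta chain made by hepatocytes, liver held 1469 reads, brain 30, kidney 35, lung 44 and spleen 46, a ratio of 43.3. At Ahsg, the secreted liver protein fetuin-A, liver held 909 reads and the others 24 to 46. At Apoe, made by liver and also by macrophages and astrocytes, liver held 787 reads, lung 451, spleen 416, kidney 345 and brain 290, a ratio of 2.40. Stk17b, a kinase of lymphocytes, held 177 spleen reads, 87 in lung, 52 in liver, 41 in kidney and 22 in brain. Ccn1, a secreted matricellular protein induced like an immediate-early gene, held 268 lung reads and 15 to 53 elsewhere. No gene known for use in kidney was placed.

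For 54 placed genes the strand of the gene was known from the promoter table, and reads were compared between 500 and 3000 bp downstream and upstream of the region's midpoint. Downstream reads made up 58.8% of these reads in spleen (95% exact binomial interval 57.3% to 60.2%), 67% in kidney, 68.3% in brain (67.2% to 69.5%), 70% in liver and 70.8% in lung. These shares pool reads over genes, so genes with many reads weigh most, and the intervals leave out the spread between genes. Taken gene by gene, the median share was 58.5% in spleen, 65% in liver, 65.6% in kidney and 66.9% in brain. Lung had a median of 68.4%, with quartiles of 51.2% and 79.1%. In 33 of the 54 genes downstream reads outnumbered upstream reads in all 5 tissues. In 3 genes, Polr2a, Tbp and Ubb, upstream reads were more in all 5. Of 14 genes with a start on the other strand within 1 kb upstream, 7 were higher downstream in all tissues, and of 40 without one, 26 were. Polr2a, Tbp and Ubb were all among the 40. Starts beyond 1 kb or on the same strand were not looked for, though the reads compared reach 3000 bp upstream. The split therefore does not set apart all genes with another start in that window. Spleen had the lowest pooled downstream share in both sets, at 57.9% with a start on the other strand within 1 kb and 59.1% without. Evenly spread background reads fall on both sides alike and make such shares less uneven. Their part in the differences between tissues was not tested.

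Lung held 9086 raw downstream reads at these genes, against 5980 in liver, 5211 in kidney, 4306 in brain and 2587 in spleen. Immediate-early genes supplied many of them. Dusp1 had 929 lung reads downstream, against 275 in liver, 228 in kidney and 130 in brain. Junb had 742 in lung and 260 in liver, and Jun had 708 in lung and 189 in liver. Fos had 442 in lung and 18 in liver. At Zfp36, by contrast, liver had 802 downstream reads and lung 508. At Brd2, which codes for a reader of acetylated histones, downstream reads made up 91.9% in brain and 88.9% in liver.

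**Figure D5:**
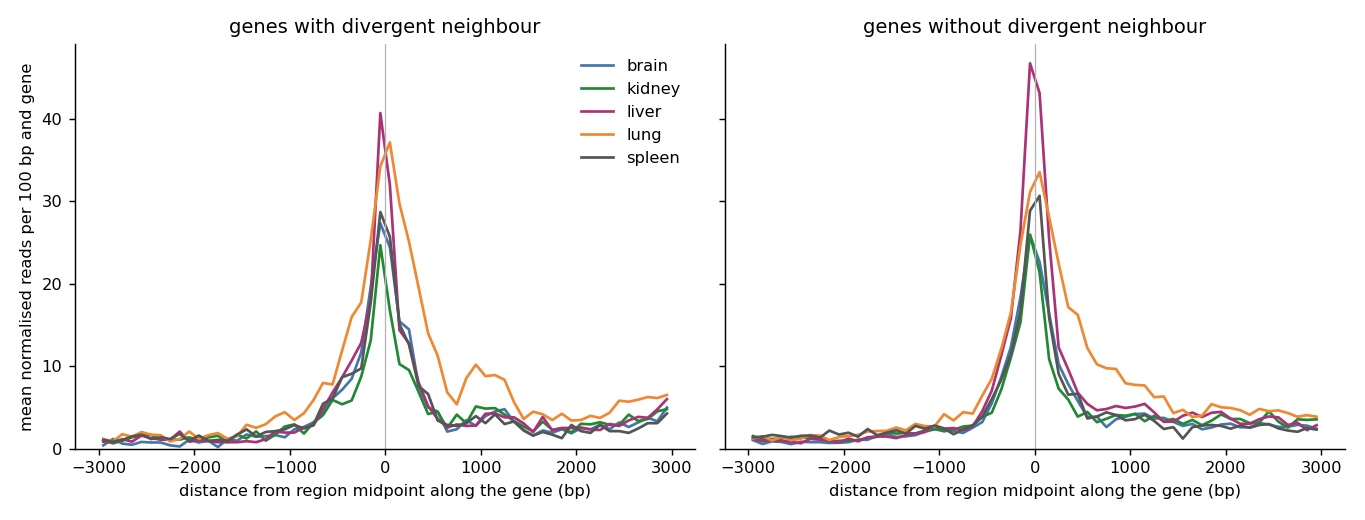
Mean normalised reads per 100 bp and gene against distance from the region's midpoint in bp, with downstream of the start to the right, for 14 genes with and 40 genes without a start on the other strand within 1 kb upstream. Over most of the range beyond 500 bp the curves lie higher downstream than upstream, and lung lies above the other tissues from 200 to 1000 bp downstream.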

How the data were processed

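RNA polymerase II chromatin immunoprecipitation was sequenced from 5 tissues, 1 library each. The authors deposited, per library, a list of aligned reads (positions and strand) and a list of peak positions on a 5 bp grid without scores. Reads were aligned with Bowtie per the submitters' processing notes, with the aligner's version and settings, the build, the peak caller and its threshold not given in the sources used here. Reads were counted at their 5′ end as deposited, and lines with lengths outside 34 to 36 bases were left out (4 to 15 per library). Peaks were called per library.

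Counts were scaled by median-of-ratios, taken over the 8222 regions where no tissue had fewer than 20 reads. With 1 library per tissue no test was made and no p-value was computed. Sides were compared 100 to 1000 bp from the midpoint. The scaling and strand measures were tested on simulated data. The simulated strand reads had no background and were centred on known midpoints. They therefore do not show how the strand distance behaves with background or off-centre midpoints, as in these data.

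The members and gene lists were chosen with earlier results of these data known. Regions without a gene name are the widest, the most uneven per leading tissue with at least 50 reads, and those with the largest lowest count. Genes named with values are those with the lowest and highest ratio in each group, plus Gapdh, Polr2a, Trp53, Malat1 and Fos, and others were picked after their values were seen. Gene starts came from memory on mm9. They were accepted when regions with peaks in at least 3 tissues matched the spacing of gene starts within 1 Mb best at an offset within 1 kb of the remembered start, in a search over 100 kb, with at least 5 matches. These limits were set after a first trial with 400 kb, under which 47 of the 58 placed genes pass. The strand distance per region, the comparison along gene orientation, the promoters and motifs shown, the 12 further genes, and the split by pile-ups were added after the data were seen. Read and GRCm38.p6 coordinates were not converted. Matplotlib 3.10.9, SciPy 1.17.1, NumPy 2.4.6 and pandas 2.3.3 were run under Python 3.11.15.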

Additional observations from a re-analysis of the deposited data

How the results depend on the processing

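No paired analysis was possible because each tissue had 1 library; for the same reason no replicate could be left out. Of 84 values under alternatives, 52 stayed within the limits set for them and 32 moved. A turn in sign was looked for only in the distances of maxima summed over regions of all widths, where none occurred under these alternatives. Changes of the tissue that led most regions were not labelled apart. The number of common regions held, at 8038 with a 150 bp and 8392 with a 500 bp extension, but their median width was 476 and 1678.5 bp. The median ratio of 2.17 was 2.86 with scaling by total reads, 2.11 with repeated reads counted once, 2.34 within 250 bp of the midpoint, and 1.98 without the spleen library (an alternative chosen after seeing the data). With scaling by total reads brain led 2670 common regions, kidney 613, lung 3434 and spleen 192, and within 250 bp of the midpoint kidney led 2010. With repeated reads counted once the summed strand maxima lay 290 bp apart in brain, 200 in kidney and 220 in spleen. Centred on each tissue's own position they lay 380 bp apart in lung, 370 in brain, 370 in kidney and 360 in liver, and the median over regions was 227 bp in lung, 226 in brain, 182 in liver, 180 in kidney and 178 in spleen. Leaving out regions near pile-ups, chosen after seeing the data, gave summed maxima of 280 bp in brain, 200 in kidney and 160 in spleen. The share of regions with the same heavier side was 25.1% with unshifted 5′ ends and 33.6% up to 2000 bp, and the share over all regions of the series was not computed for either. The cause of these shifts was not tested. Low counts limit precision, most of all in spleen with its median of 28 reads per common region. The spleen library was not the smallest, with 13283124 aligned reads against 10292262 in brain and 10846976 in lung. The cause of its low counts was not tested.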
